A study of Bos taurus with 12 samples.

Results

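This comparison set the endometrium of dairy cows with very low progesterone against that of cows with high progesterone, as measured on day 4 of the estrous cycle. It was made up of 6 of the 12 libraries of the series, chosen by their labels: 3 of the very low class, labelled as below 0.25 ng/ml, and 3 of the high class, labelled as above 2.5 ng/ml. All were RNA from endometrial biopsies of grazing dairy cows (Bos taurus), and the labels name no treatment, breed, age or diet. The remaining 6 libraries, 3 of a low class (below 1.4, given in mg/dl where the others have ng/ml) and 3 of a very high class (above 20 ng/ml), entered the same statistical model and are quoted only beside the genes described. Titles carry the codes ANE (very low) and HPP4 (high), which no label explains, and the labels do not say whether the classes differ in more than progesterone. The labels give class bounds rather than a concentration per sample and do not say whether replicates are separate cows, so p-values measure only the spread between these samples, which may be technical. A biopsy mixes cell types, so fewer cells of a type and less RNA per cell cannot be told apart.

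Progesterone is the steroid of the corpus luteum. It enters uterine cells and acts mainly through the nuclear progesterone receptor PGR, which binds DNA and changes transcription. In ruminants, progesterone prepares the glands and stroma of the endometrium to secrete the nutrients that feed the embryo, lowers its own receptor in the epithelium over time, and holds back the oxytocin receptor, whose return in late diestrus starts the prostaglandin pulses that end the cycle. Estrogen, high around heat, favours cell division and the receptors for both steroids.

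The 6 libraries held 3772564 to 7769659 counted reads, the fewest in very low replicate 2. The high libraries resembled each other (Spearman correlation over genes 0.957 to 0.972) more than the very low ones did (0.738 to 0.877). Muscle markers diverged most within the very low class. Summed over 17 tested smooth muscle markers, very low replicate 1 had 104300 CPM (read counts scaled by TMM to a common library total), very low replicates 2 and 3 had 1084 and 2746, and the high libraries 17310, 26450 and 43010. The 18 tested epithelial markers summed to 475, 8626 and 4090 CPM in the very low libraries and to between 2628 and 3648 in the high ones. Very low replicate 1 was thus poor in epithelium and rich in muscle, and very low replicate 2 was the reverse. Reads of 1 epithelial and 1 stromal marker were present in every library, which alone does not show the tissue to be endometrium. The epithelial adhesion molecule EPCAM had 21.9, 584 and 242 CPM in the very low and 423, 349.8 and 234 CPM in the high libraries, and the stromal collagen COL1A1 had 8639, 594 and 7724 CPM and 3107, 2642 and 2963 CPM. None of the muscle, epithelial, stromal or endothelial markers measured was at 0 in a whole class. The part of this tissue make-up in the differences below was not tested beyond the fits with marker scores.

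**Figure D1:**
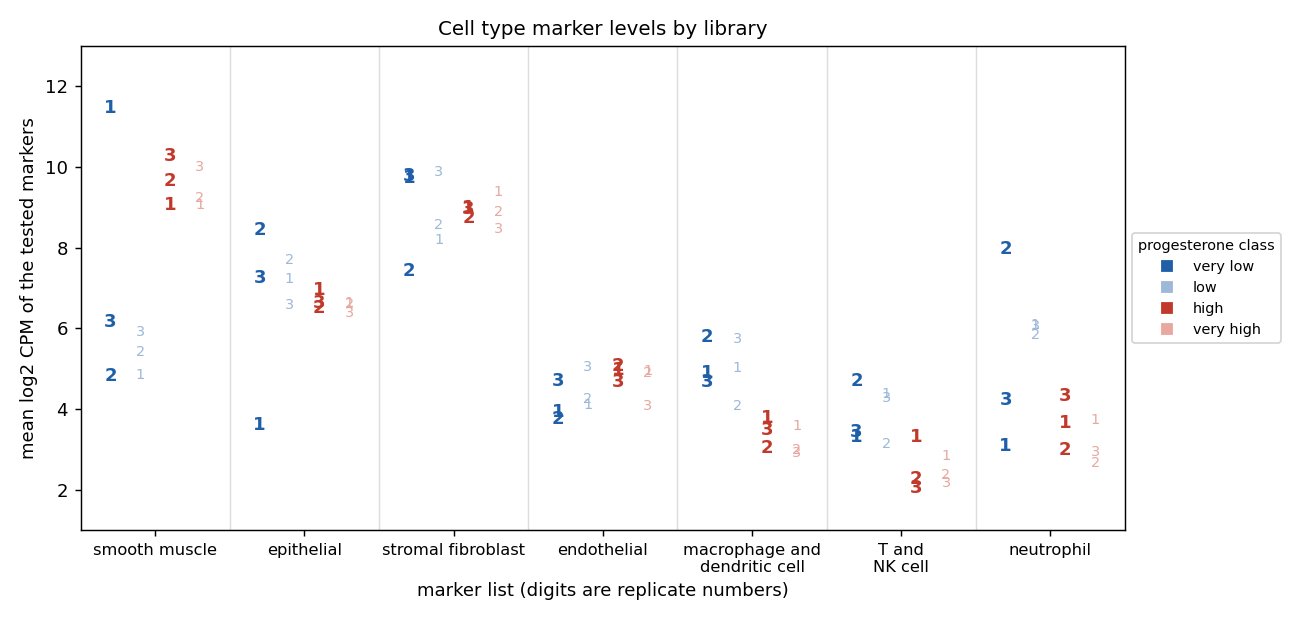
Mean log2 CPM of the tested markers of 7 cell types (y axis) in each library, printed as its replicate number and coloured by progesterone class. In the smooth muscle column very low replicate 1 lies at 11.45 and replicates 2 and 3 at 4.81 and 6.15, while the 3 high libraries lie between 9.06 and 10.27.

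The high libraries held between 34.2 and 899.7 CPM of PENK, MEP1B, NRCAM and SLC27A6, genes nearly absent from the very low libraries. The receptor OXTR and 11 of 12 macrophage markers lay lower in every high library than in any very low one. No single gene, however, passed the threshold between the classes. The edgeR quasi-likelihood test on all 12 libraries called 0 of 10959 genes at an adjusted p under 0.05 (0%), with a smallest adjusted p of 0.0611 that 24 genes shared. At an unadjusted p under 0.05 there were 2058 genes (18.8%), 942 higher (8.60%) and 1116 lower (10.2%) in the high class, where chance alone would give 548. The genes with the smallest p lay mostly on the higher side: of 100 genes with an adjusted p under 0.1, 88 were higher and 12 lower. The CPM ranges of the 2 classes did not overlap for 2232 genes (20.4%), 1177 higher (10.7%) and 1055 lower (9.63%). The median log2 fold change over all tested genes was -0.12, so a list near that value stood with the bulk of genes. DESeq2, run as an alternative on the same genes, called 788 (7.25% of those with an adjusted p), 448 higher (4.12%) and 340 lower (3.13%), and limma-voom called 0 (1731 at an unadjusted p under 0.05, 15.8%).

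The count of 0 depended on which libraries were in the fit and on its covariates, as well as on the test. Leaving out very low replicate 1, the muscle-rich library, gave 130 genes (68 higher, 62 lower), of which 10 were smooth muscle markers, all higher. MYH11, the smooth muscle myosin heavy chain, led them. It had 1455, 2.07 and 3.12 CPM in the very low and 309.8, 436 and 494 CPM in the high libraries, a log2 fold change of -0.24 ± 1.58 with all libraries (edgeR adjusted p = 0.952) and of 7.26 without that replicate (edgeR adjusted p = 0.00771). Leaving out very low replicate 3 gave 124 (95 and 29), and leaving out low replicate 3, which is outside the comparison but shares the estimate of spread, gave 68 (63 and 5). Without any 1 of the other 9 libraries it remained 0. With the smooth muscle score of each library as a covariate 1167 genes passed (727 higher, 440 lower). With the epithelial score added to it 0 passed (1075 at an unadjusted p under 0.05). In what follows a gene is therefore given by its values, and none is called changed. Counts of list members refer to the unadjusted p under 0.05, to be read against 8.60% higher and 10.2% lower among all genes. Where leaving out 1 very low library moved the number of members under that p, in either direction, by over 1.5 times, the number without it is given too.

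**Figure D2:**
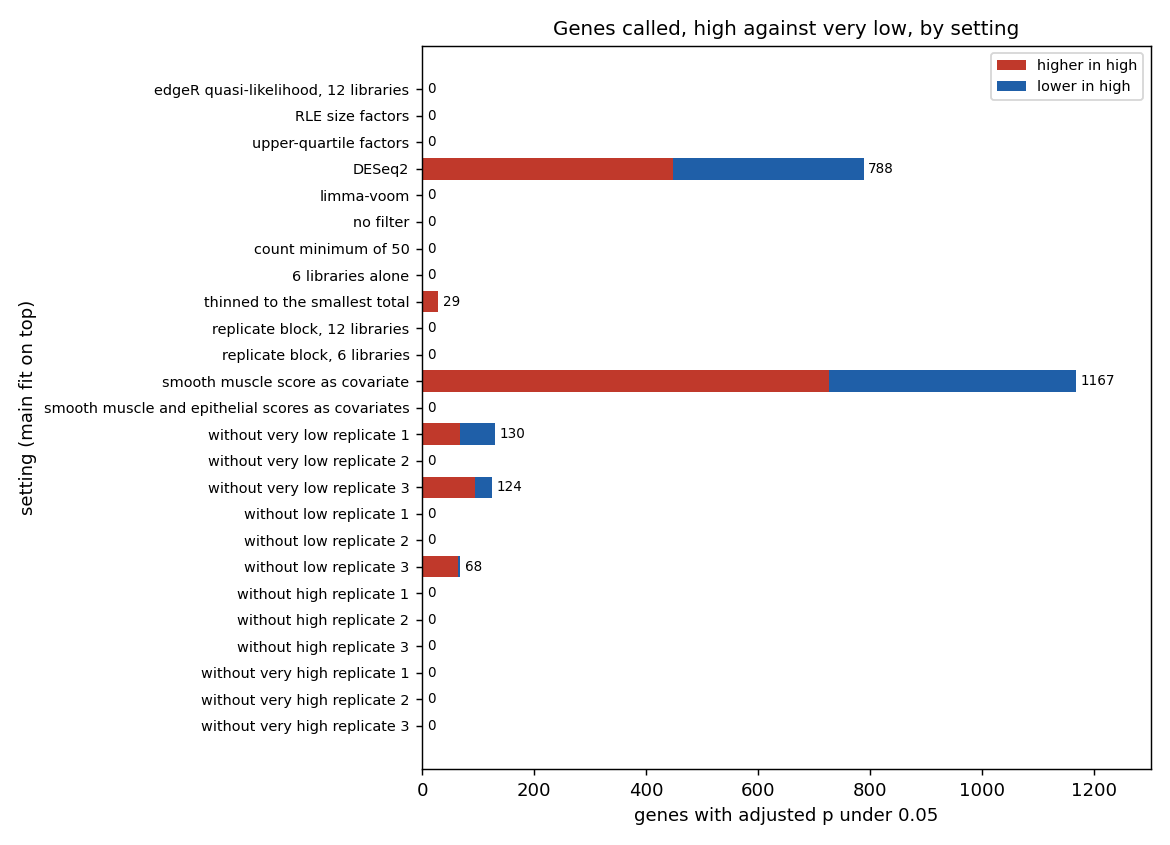
Number of genes with an adjusted p under 0.05 (x axis, higher in the high class in red, lower in blue) under the main fit, which is the top row, and each of 24 alternative settings (y axis). The main fit called 0, and 6 settings gave more, from 29 after thinning to 1167 with the smooth muscle score.

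Among the steroid receptors, which receive the progesterone and estrogen signal, PGR had 62.2, 34.1 and 70.3 CPM in very low replicates 1, 2 and 3 and 26.4, 37.5 and 32.3 CPM in the high ones. The ranges overlapped through very low replicate 2, and the log2 fold change was -0.79 ± 0.27 (SE; edgeR adjusted p = 0.183). The estrogen receptor alpha, ESR1, had 106, 151 and 40.7 CPM against 59.8, 61.2 and 46.8 CPM, and overlapped as well (log2 -0.82 ± 0.58, edgeR adjusted p = 0.465). ESR2, the beta form, had 0, 3.1 and 8.19 CPM against 29.2, 24.2 and 18.4 CPM, without overlap and higher in the high class (log2 2.63 ± 0.99, edgeR adjusted p = 0.201). Its locus overlaps that of SYNE2, and the reads of the pair could not be separated. The glucocorticoid receptor NR3C1 had 39.8, 74.9 and 59.1 CPM against 32.2, 23.6 and 28.2 CPM, lower in every high library (log2 -1.05 ± 0.26, edgeR adjusted p = 0.112). FKBP5, a receptor co-chaperone that steroid hormones induce, had 85.7, 98.1 and 70.1 CPM against 286, 237 and 179.8 CPM, higher in every high library (log2 1.47 ± 0.29, edgeR adjusted p = 0.0866). Of 17 tested receptors and partners, 3 were higher and 2 lower, with a median log2 fold change of -0.0022.

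The oxytocin receptor OXTR had 56.2, 209 and 167 CPM in the very low class and 37.8, 8.54 and 8.73 CPM in the high class. All high libraries lay below all very low ones, with high replicate 1 and very low replicate 1 closest to each other (log2 -2.97 ± 0.73, edgeR adjusted p = 0.112). In the low class it had 6.85, 11.1 and 21.7 CPM and in the very high class 2.52, 4.49 and 6.73 CPM, so the very low class stood alone at the top. Between the very high and high classes its log2 fold change was -2.01 (edgeR unadjusted p = 0.019, adjusted p = 0.9999).

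Of the 12 genes with the smallest p on the higher side, 5 were almost absent from the very low libraries. PENK, the gene for the protein from which opioid enkephalins are cut, had 1.06, 0.516 and 6.5 CPM in the very low libraries and 799, 786 and 899.7 CPM in the high ones. The high values were nearly equal and the very low ones rested on 6, 2 and 50 reads (log2 8.17 ± 1.11, edgeR adjusted p = 0.0611). MEP1B, a subunit of the membrane protease meprin, had 0, 0.516 and 1.04 CPM against 121, 64.8 and 127 CPM (log2 7.5 ± 1.06), on 0, 2 and 8 reads in the very low class. NRCAM, a cell adhesion molecule best known from neurons, had 0, 0.258 and 2.73 CPM against 182, 181 and 99.7 CPM (log2 7.06 ± 1.10). The fatty acid transport protein SLC27A6 had 0, 0 and 1.69 CPM against 82.2, 97.6 and 34.2 CPM (log2 6.66 ± 1.09). For NRCAM and SLC27A6 nearly all reads of the very low class came from replicate 3. FMO2, a flavin monooxygenase that oxidises foreign compounds, had 0.177, 1.29 and 1.69 CPM against 35.6, 18.9 and 15.8 CPM (log2 4.43 ± 0.62). Among these 5 genes the gap between the lowest high library and the highest very low one was widest in PENK and narrowest in FMO2.

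The others of the 12 had reads in all libraries of both classes. KLF15, a transcription factor induced by steroid hormones, had the smallest p of all genes, with 6.01, 11.4 and 7.41 CPM against 37.6, 44.1 and 37.4 CPM (log2 2.27 ± 0.30, edgeR adjusted p = 0.0611). ADCY8, an adenylyl cyclase that makes cyclic AMP, had 0.53, 2.84 and 2.47 CPM against 21.9, 47.7 and 37 CPM (log2 4.19 ± 0.65). HIF3A, a member of the hypoxia-inducible factor family, had 6.01, 1.55 and 3.64 CPM against 35.8, 106 and 74.8 CPM (log2 4.24 ± 0.67). GGT5, which cleaves glutathione and leukotriene C4, had 22.1, 68.9 and 72.1 CPM against 292, 640.4 and 435 CPM (log2 3.07 ± 0.48). The last 3 showed smaller differences with little spread. The membrane protein TM7SF3 had 52.8, 42.9 and 55.8 CPM against 108, 131 and 97.8 CPM (log2 1.15 ± 0.18). The zinc finger protein ZNF613 had 34.6, 33.3 and 30.5 CPM against 77, 105 and 64.5 CPM (log2 1.32 ± 0.21). The mitochondrial dehydrogenase DHTKD1 had 62.6, 62.2 and 61.6 CPM against 137, 119 and 107 CPM (log2 0.96 ± 0.16). All 12 genes shared an edgeR adjusted p of 0.0611, and none of their class ranges overlapped (the rule that named them required it). All 12 passed when very low replicate 1, very low replicate 3 or low replicate 3 was left out, and 0 when any other library was. Those 3 fits called 68 of 11098, 95 of 11087 and 63 of 11085 genes higher. The 12 were chosen by p in these same libraries, so their passing there is no independent support.

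**Figure D3:**
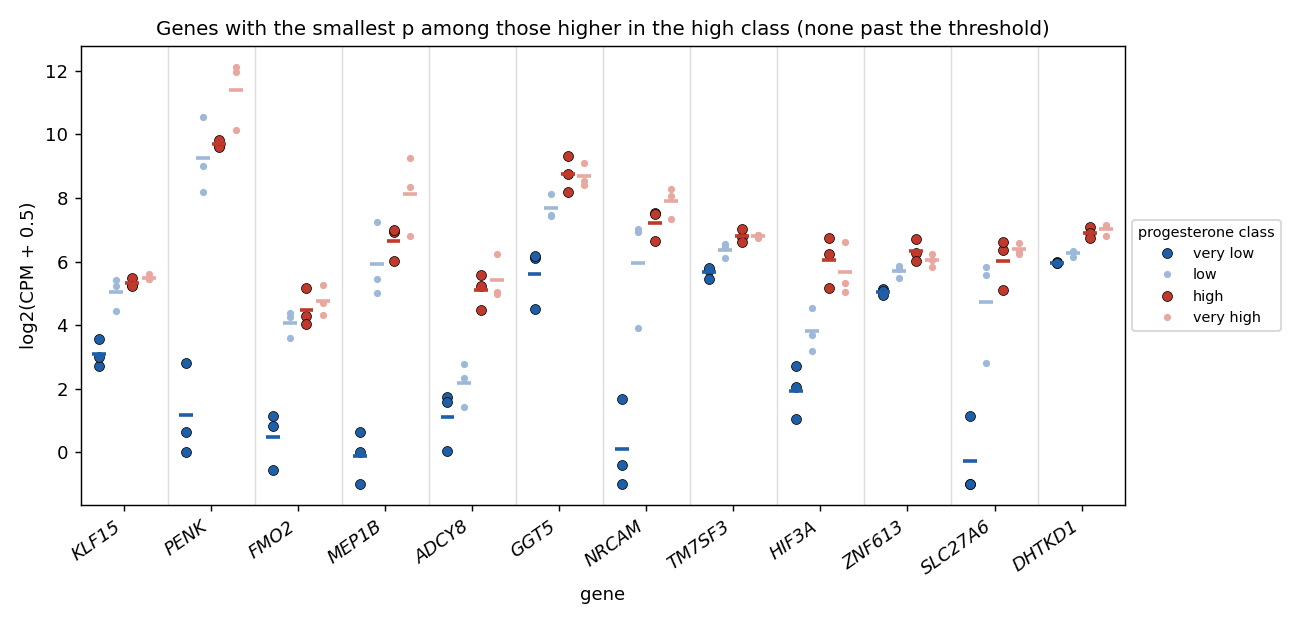
Level of the 12 genes as log2(CPM + 0.5) (y axis) in each of the 12 libraries, coloured by class, with a bar at the class mean. The very low points of PENK, MEP1B, NRCAM and SLC27A6 lie near the floor, and in each gene the 3 high points lie above the 3 very low ones.

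The low and very high classes were read from the same model. In 11 of the 12 all low libraries lay above all very low ones, ADCY8 being the exception, and in 6 of the 12 the low range overlapped the high range. The 12 were chosen for lying low in these same very low libraries, so the 11 are no independent support. The share of all genes with this pattern was not computed. PENK had 512, 1511 and 291 CPM in the low class, KLF15 42.2, 37.4 and 21.3 CPM and MEP1B 153, 43.6 and 32 CPM, ranges that overlapped those of the high class. ADCY8 (6.33, 4.61 and 2.17 CPM) and HIF3A (22.9, 12.3 and 8.54 CPM) stayed below all high libraries in the low class. Their log2 fold changes for high over low were 3.02 and 2.31 (edgeR adjusted p = 0.3508 for both, unadjusted p = 0.000407 and 0.00286). These contrasts share the high libraries with the main one. In the very high class the range overlapped the high range for 11 of the 12. PENK was apart, at 4482, 4008 and 1132 CPM, a log2 fold change of 1.95 over the high class (edgeR unadjusted p = 0.0385, adjusted p = 0.9999). Over all genes the very high against high comparison called 0 (0%) in edgeR and 0 in DESeq2, so no gene was shown to differ between those classes. In edgeR 87 genes had an unadjusted p under 0.05 (0.794%), fewer than the 548 that chance alone would give. With the 6 high and very high libraries alone 355 of 10534 did, and 0 passed. The low count of 87 therefore does not show that the classes are alike.

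Genes associated with progesterone in the endometrium, whether raised or lowered, were collected in a list of 37, of which 34 were tested. Part of that list, PENK, MEP1B, NRCAM, CES4A, SLC27A6 and CHGA among it, was drawn up with earlier results on these very low libraries in view, so its count is no independent evidence of direction. In it 16 members were higher and 2 lower, with a median log2 fold change of 1.02. The 2 lower were MUC1 and LGALS9. Over all tested members of the list, 20 had a log2 fold change above 0 and 14 below. CHGA, the secretory granule protein chromogranin A, had 4.24, 1.03 and 1.95 CPM against 18, 39.8 and 61.9 CPM, without overlap (log2 4.01 ± 0.69, edgeR adjusted p = 0.0611). The following members, all from the higher side, were chosen after their values were seen. IHH, the hedgehog ligand that carries the progesterone signal from epithelium to stroma, had 0.353, 1.29 and 64.9 CPM against 177, 539 and 213 CPM (log2 3.78 ± 1.37, edgeR adjusted p = 0.197), and PTCH1, its receptor and target, had 1.41, 11.6 and 10 CPM against 29.4, 55.2 and 43.1 CPM (log2 2.48 ± 0.74, edgeR adjusted p = 0.151). TDGF1, a Nodal co-receptor, had 4.07, 4.13 and 271 CPM against 3959, 3971 and 1961 CPM. SERPINA14, the uterine milk protein, had 0, 0 and 1.3 CPM against 2.28, 20.9 and 14.1 CPM. CES4A, a carboxylesterase, had 0, 1.03 and 0.78 CPM against 97.7, 28.2 and 7.09 CPM. In IHH and TDGF1 very low replicate 3 lay far above the other 2 very low libraries and still below every high library. The steroid-induced factor ZBTB16 had 0.177, 2.84 and 0.91 CPM against 5.5, 6.12 and 3.96 CPM, also without overlap.

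Of 11 tested neuropeptide and granule genes 4 were higher and 1 lower. Their median log2 fold change was -0.17 and turned positive, to between 0.34 and 0.53, when any 1 very low library was left out. Besides PENK and CHGA, the granule protein secretogranin SCG2 had 0, 0.258 and 0 CPM against 0.939, 4.34 and 1.5 CPM, low levels that differed without overlap (log2 4.85 ± 1.03, edgeR adjusted p = 0.0903). The 1 lower member, the neuropeptide NPY, had 0.884, 1.03 and 104 CPM against 2.01, 0.383 and 1.77 CPM, a difference carried by very low replicate 3 alone: without it the log2 fold change was 0.53, where it had been -4.66.

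On the lower side the 12 genes with the smallest p showed smaller differences, from -2.17 to -0.78 on the log2 scale, with edgeR adjusted p of 0.0665 to 0.102. RAB27B, a small GTPase that docks secretory vesicles, had 13.1, 19.1 and 10.1 CPM against 2.95, 2.42 and 3.96 CPM (log2 -2.17 ± 0.40). HACD4, an enzyme of very long chain fatty acid elongation, had 18.9, 42.1 and 35 CPM against 6.84, 5.74 and 9.0 CPM (log2 -2.15 ± 0.46). SLC1A5, the glutamine carrier, had 23.3, 73.3 and 41.5 CPM against 11.1, 7.78 and 16.9 CPM (log2 -1.94 ± 0.41). TGFB2, a growth factor of the TGF-beta family, had 22.6, 52.9 and 33.5 CPM against 8.32, 11.2 and 10.4 CPM (log2 -1.86 ± 0.39). The alpha tubulin TUBA4A had 128, 66.3 and 47.7 CPM against 24.2, 12.6 and 31.6 CPM (log2 -1.82 ± 0.39). In SLC1A5, TGFB2 and TUBA4A the very low libraries were spread over a wide range, and in the next 4 genes over a narrow one.

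G3BP1, a core protein of stress granules, had 123, 104 and 108 CPM against 59.8, 64.7 and 70 CPM (log2 -0.78 ± 0.14, edgeR adjusted p = 0.0665), and had the smallest p of the lower genes. GNPTAB, which puts the mannose 6-phosphate tag on lysosomal enzymes, had 44.4, 48 and 31.7 CPM against 17.4, 15.9 and 18 CPM (log2 -1.27 ± 0.23). The vacuolar proton pump subunit ATP6V1B2, which acidifies lysosomes, had 140.3, 166 and 135 CPM against 69.9, 70.9 and 79.8 CPM (log2 -1.0 ± 0.21). The Polycomb-associated protein PHF19 had 14.1, 17.3 and 13.9 CPM against 4.83, 4.97 and 7.09 CPM (log2 -1.42 ± 0.31). The membrane protein PLXDC2, whose locus overlaps ADNCR, had 117, 83.4 and 103 CPM against 42.7, 41.8 and 38.5 CPM (log2 -1.31 ± 0.23). The membrane-curvature protein SH3GLB1 had 58, 68.4 and 45.2 CPM against 35.6, 23.6 and 29.1 CPM (log2 -0.96 ± 0.21). The ganglioside synthase ST3GAL5 had 12.2, 30.7 and 20.7 CPM against 7.65, 7.91 and 7.5 CPM (log2 -1.46 ± 0.33). In all 12 genes the very high libraries lay below the very low ones. In 8 the low libraries did too, while SLC1A5, TUBA4A, HACD4 and SH3GLB1 in the low class overlapped the very low range. The 12 were chosen for lying high in these same very low libraries, so neither count is independent support. The share of all genes with this pattern was not computed. Leaving out very low replicate 1 let 7 of the 12 pass, leaving out very low replicate 3 let 5 pass, and leaving out low replicate 3 let 4 pass. With any other library left out 0 passed. Those fits called 62 of 11098, 29 of 11087 and 5 of 11085 genes lower, and these 12 too were chosen by p in the same libraries.

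**Figure D4:**
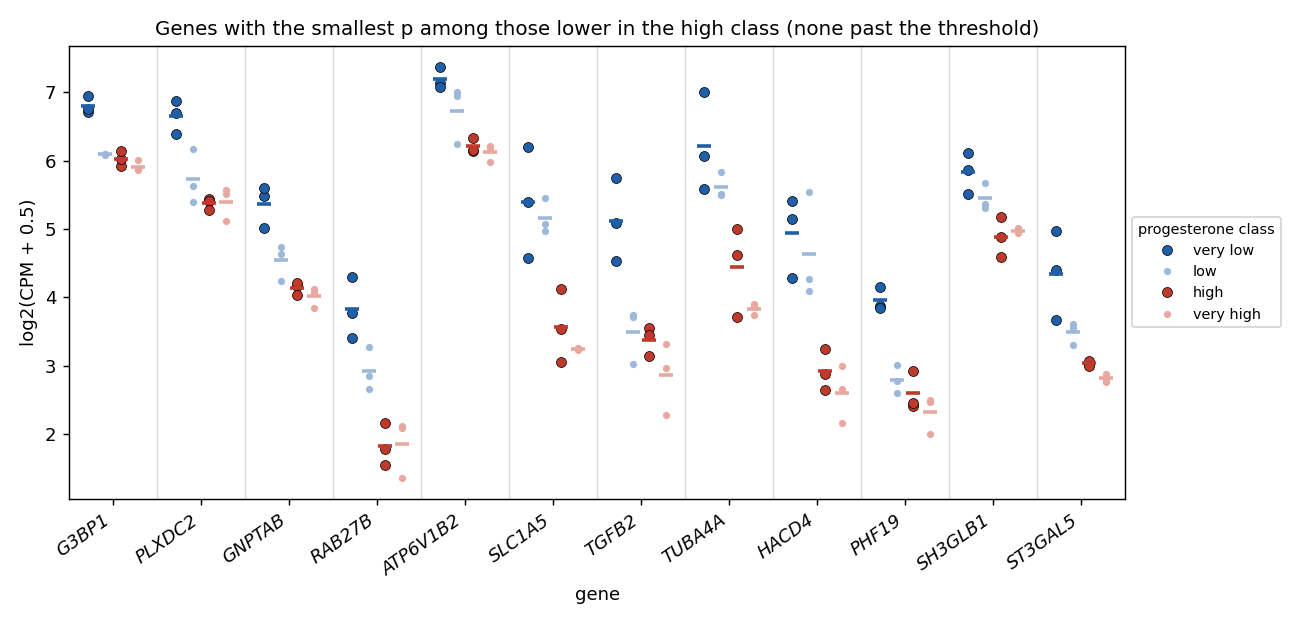
Level of the 12 lower genes as log2(CPM + 0.5) (y axis) by library and class, with a bar at the class mean. In each gene the 3 high points lie below the 3 very low points, which the naming rule required. The very high points lie below the same very low points, for which the genes were chosen.

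Prostaglandins made by the endometrium end the cycle or, as prostaglandin E2, support the embryo. AKR1B1, which makes prostaglandin F2α in cattle, had 101, 58.3 and 159 CPM against 576, 630.1 and 346 CPM (log2 2.29 ± 0.47, edgeR adjusted p = 0.0867). HPGD, which breaks prostaglandins down, had 6.72, 19.4 and 69.8 CPM against 614, 426 and 208 CPM (log2 3.69 ± 0.76, edgeR adjusted p = 0.0867). PTGES, which makes prostaglandin E2, had 10.1, 133 and 37.4 CPM against 5.37, 2.81 and 4.23 CPM (log2 -3.86 ± 1.02, edgeR adjusted p = 0.123). None of the 3 overlapped between the classes, with AKR1B1 and HPGD higher and PTGES lower in the high class. Of 19 tested genes of the prostaglandin and oxytocin pathway 3 were higher and 2 lower (median -0.57), 5 in all, against 9 without very low replicate 1. Within cyclic AMP signalling, 3 of 20 were higher and 2 lower (median -0.06). Beside ADCY8, the cyclase ADCY5 had 20.7, 2.32 and 9.23 CPM against 40.9, 103 and 101 CPM (log2 2.91 ± 0.69), and the protein kinase A inhibitor PKIB had 44.4, 52.9 and 50.3 CPM against 24.8, 9.44 and 22.1 CPM (log2 -1.39 ± 0.40). Their edgeR adjusted p were 0.109 and 0.149.

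Among signalling ligands, WNT11, a ligand of the non-canonical WNT branch, had 3.0, 1.81 and 8.19 CPM against 43.6, 59.6 and 31.8 CPM (log2 3.32 ± 0.69, edgeR adjusted p = 0.0867). The ligand WNT2B, whose locus overlaps ST7L, had 4.77, 2.32 and 10.9 CPM against 19.9, 40.8 and 43.6 CPM, and the secreted WNT inhibitor DKK1 had 0.177, 0.774 and 2.21 CPM against 27.9, 7.78 and 4.64 CPM. WNT7A, an epithelial ligand, had 2.65, 20.4 and 37.8 CPM against 5.64, 0.765 and 1.23 CPM, with overlap. Of 27 WNT pathway genes 4 were higher and 1 lower (median -0.14, but 0.42 without very low replicate 1 and 0.31 without very low replicate 3). Those 5 became 11 without very low replicate 1 and 9 without very low replicate 3. BMP4 had 32.2, 15.5 and 41.6 CPM against 84.8, 88.1 and 76.4 CPM (log2 1.47 ± 0.36, edgeR adjusted p = 0.115), and follistatin, FST, which traps activin, had 1.06, 0.516 and 9.75 CPM against 22.3, 18.1 and 20.3 CPM. The BMP and TGF-beta family of 20 had 2 higher and 2 lower members (median -0.27), and 7 in all without very low replicate 1. Of 11 genes of the IGF axis 1 was higher and 3 lower (median 0.25), and 2 in all were under that p without very low replicate 2 (median -0.02). The higher one, the IGF-binding protein IGFBP1, had 0.177, 0.516 and 0.65 CPM against 2.01, 2.55 and 31.5 CPM, and most of its high class level came from replicate 3. Of 23 growth factor ligands and receptors 2 were higher and 4 lower (median -0.26). Of 22 uterine transcription factors 2, KLF15 and SOX17, were higher and none lower in this count (median -0.09), while 7 were under that p without very low replicate 3. SOX17, a glandular factor, had 4.42, 52.7 and 103 CPM against 242, 224 and 144 CPM (log2 1.93 ± 0.80, edgeR adjusted p = 0.231). In the retinoid pathway, which turns vitamin A into retinoic acid, 3 of 16 were higher (median -0.01), and LRAT, which stores retinol as esters, had 3.18, 1.55 and 32.2 CPM against 178, 159.5 and 138 CPM.

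The endometrium passes sugars, amino acids and lipids to the uterine lumen. Of 30 tested glucose, fructose and amino acid transporters 3 were higher and 3 lower (median -0.43), 6 in all, against 11 without very low replicate 1. SLC38A7, a lysosomal glutamine exporter, had 14.7, 23.5 and 25.5 CPM against 83.1, 102 and 48.3 CPM (log2 1.88 ± 0.38, edgeR adjusted p = 0.0867), and SLC7A8, a carrier of neutral amino acids, had 3.53, 13.9 and 11.4 CPM against 67.6, 95.4 and 68.9 CPM (log2 3.01 ± 0.77, edgeR adjusted p = 0.117). Both were without overlap and opposite in direction to SLC1A5. In fatty acid uptake and storage 6 of 26 were higher and 1 lower (median 0.20), 7 in all, against 11 without very low replicate 2. The acyl-CoA synthetase ACSL1 had 43.1, 76.4 and 48 CPM against 166, 168 and 100.3 CPM and the mitochondrial gatekeeper CPT1A had 63.3, 157 and 113 CPM against 332, 240 and 173 CPM, both higher, while ACSL5 had 66.3, 358 and 111 CPM against 57.2, 30.2 and 49.4 CPM. Of 26 genes of sterol and fatty acid synthesis 3 were higher and 1 lower (median 0.06). ACACA, the first enzyme of fatty acid synthesis, had 31.8, 36.1 and 19.5 CPM against 116, 136 and 103 CPM (log2 2.03 ± 0.56, edgeR adjusted p = 0.13).

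Glycolytic enzymes lay lower in the high class in 9 of 19 (47.4%, against 10.2% of all genes) and higher in 0, with a median log2 fold change of -0.75. PFKL, the liver form of phosphofructokinase, had 122, 209 and 168 CPM against 91.2, 69.4 and 95.5 CPM (log2 -0.96 ± 0.22, edgeR adjusted p = 0.107). The pyruvate kinase PKM had 1154, 906 and 835 CPM against 490.1, 369.9 and 470.1 CPM (log2 -1.12 ± 0.29, edgeR adjusted p = 0.12), and PGK1, whose locus overlaps TAF9B, had 269.5, 223 and 194 CPM against 119, 107 and 149 CPM. GAPDH, often used as a reference gene in PCR and chosen here after its values were seen, had 1878, 816 and 676 CPM against 419, 397 and 648 CPM. In PKM and GAPDH very low replicate 1 was the highest library, and without it the median of the list went from -0.75 to -0.35 and the members under that p from 9 to 5.

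Mitosis and spindle genes were lower in 10 of 26 and higher in 1 (median -1.30). Of the lower members, the 2 given here had low values. The kinase AURKA had 7.78, 13.2 and 15.9 CPM against 4.56, 4.59 and 4.77 CPM and the spindle motor KIF11 had 6.01, 12.1 and 21.6 CPM against 2.28, 2.93 and 5.87 CPM (edgeR adjusted p = 0.165 and 0.17). The 1 higher member was CCNB1, cyclin B1, which drives entry into mitosis. It had 2.3, 8.52 and 58.9 CPM against 257, 349 and 117 CPM (log2 3.36 ± 0.97, edgeR adjusted p = 0.146), at 258, 248 and 68.9 CPM in the low and 135, 142 and 108 CPM in the very high class. The other 25 members of the list had a log2 fold change below 0. Without very low replicate 3, the library with the most KIF11, the list's median went from -1.30 to -0.58 and the members under that p from 11 to 3, while there were 21 without very low replicate 1. Among 29 DNA replication and S phase genes 1 was higher and 3 lower (median -0.30), 4 in all, against 9 without very low replicate 1, and the ribonucleotide reductase subunit RRM2 had 10.3, 34.1 and 54.7 CPM against 6.84, 4.08 and 9.82 CPM.

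Of 12 tested macrophage and dendritic cell markers 11 were lower (91.7%) and 0 higher, with a median of -1.89, and 11 did not overlap. ITGAM, an integrin of myeloid cells, had 13.4, 21.9 and 8.19 CPM against 4.16, 2.68 and 2.59 CPM (log2 -2.20 ± 0.52, edgeR adjusted p = 0.109). The lysosomal protein CD68 had 57.1, 123 and 68.9 CPM against 28, 21.6 and 28.2 CPM (log2 -1.68 ± 0.40, edgeR adjusted p = 0.109), and the myeloid transcription factor SPI1 had 32.9, 79 and 24.3 CPM against 13.6, 8.67 and 13.9 CPM. The summed level of the list was 728, 1381 and 638 CPM in the very low and 387, 202 and 269 CPM in the high libraries. AIF1, C1QA, C1QB and C1QC, also on that list, are listed at 0 in all 6 libraries. Leaving out very low replicate 1, 2 or 3 gave medians of -1.88, -1.27 and -1.97, with 11, 7 and 12 members under that p. With both marker scores in the fit it was 0.45, the opposite sign.

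T and NK cell markers were lower in 13 of 22 (59.1%) and higher in 0 (median -1.38), and CD27 is listed at 0 in all 6 libraries. The granule protease GZMA had 0.884, 14.5 and 2.08 CPM against 1.48, 0.51 and 0.682 CPM and the cytotoxic granule protein NKG7 had 33.8, 65.3 and 36.1 CPM against 21.5, 13.4 and 12.8 CPM (edgeR adjusted p = 0.186 and 0.199). The summed levels of the markers did not overlap, though high replicate 1 came close to very low replicate 3: 348, 765 and 328 CPM against 322, 155 and 134 CPM. For B and plasma cells 1 of 13 was lower (median -0.68), and 2 were under that p without very low replicate 3. Antigen presentation genes were lower in 11 of 21 (52.4%, median -1.37). The class II invariant chain CD74 had 2040.1, 6395 and 2175 CPM against 1367, 658 and 855 CPM and the class II chain BOLA-DRB3, 1 of several near-identical cattle MHC genes whose counts are uncertain, had 431, 873 and 439.9 CPM against 201, 86.3 and 220.0 CPM. Both counts rested on very low replicate 2: without it 2 of 22 T and NK cell markers (median -0.70) and 1 of 21 antigen presentation genes (median -0.62) had an unadjusted p under 0.05. With both marker scores they were 1.17 and 0.29.

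Very low replicate 2 held the highest level of every inflammatory gene named here. The antimicrobial and acute phase list was lower in 10 of 16 (62.5%, median -3.02), the neutrophil markers in 4 of 9 (44.4%, median -3.33), complement in 9 of 18 (50.0%, median -1.19), toll-like receptors and adaptors in 5 of 18 (median -0.53) and cytokines and chemokines in 4 of 32 (median -1.36). In none of these lists was a member higher in this count. The neutrophil calprotectin subunit S100A8 had 13.8, 502 and 11.7 CPM against 3.49, 10.5 and 15.6 CPM, and the neutrophil chemokine CXCL5 had 3.53, 630.1 and 99.7 CPM against 12.6, 3.44 and 7.64 CPM, both with overlapping classes. Complement factor B, CFB, had 180.4, 4444 and 122 CPM against 25.1, 45.7 and 181 CPM. The summed neutrophil markers were 302, 19360 and 693 CPM in the very low and 465, 422 and 1794 CPM in the high libraries. CAMP, on that list, is listed at 0 in both classes and ELANE in the high class. Without very low replicate 2 the medians went to 0.03 for neutrophil markers, 0.07 for antimicrobial genes, 0.22 for cytokines and 0.11 for toll-like receptors, and to -0.78 for complement. The members under that p were then 1 antimicrobial gene, 1 neutrophil marker, 2 cytokines, 3 toll-like receptor genes and 3 complement genes. Without very low replicate 1 there were 11 cytokines and 7 neutrophil markers, and without very low replicate 3 there were 8 cytokines.

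**Figure D5:**
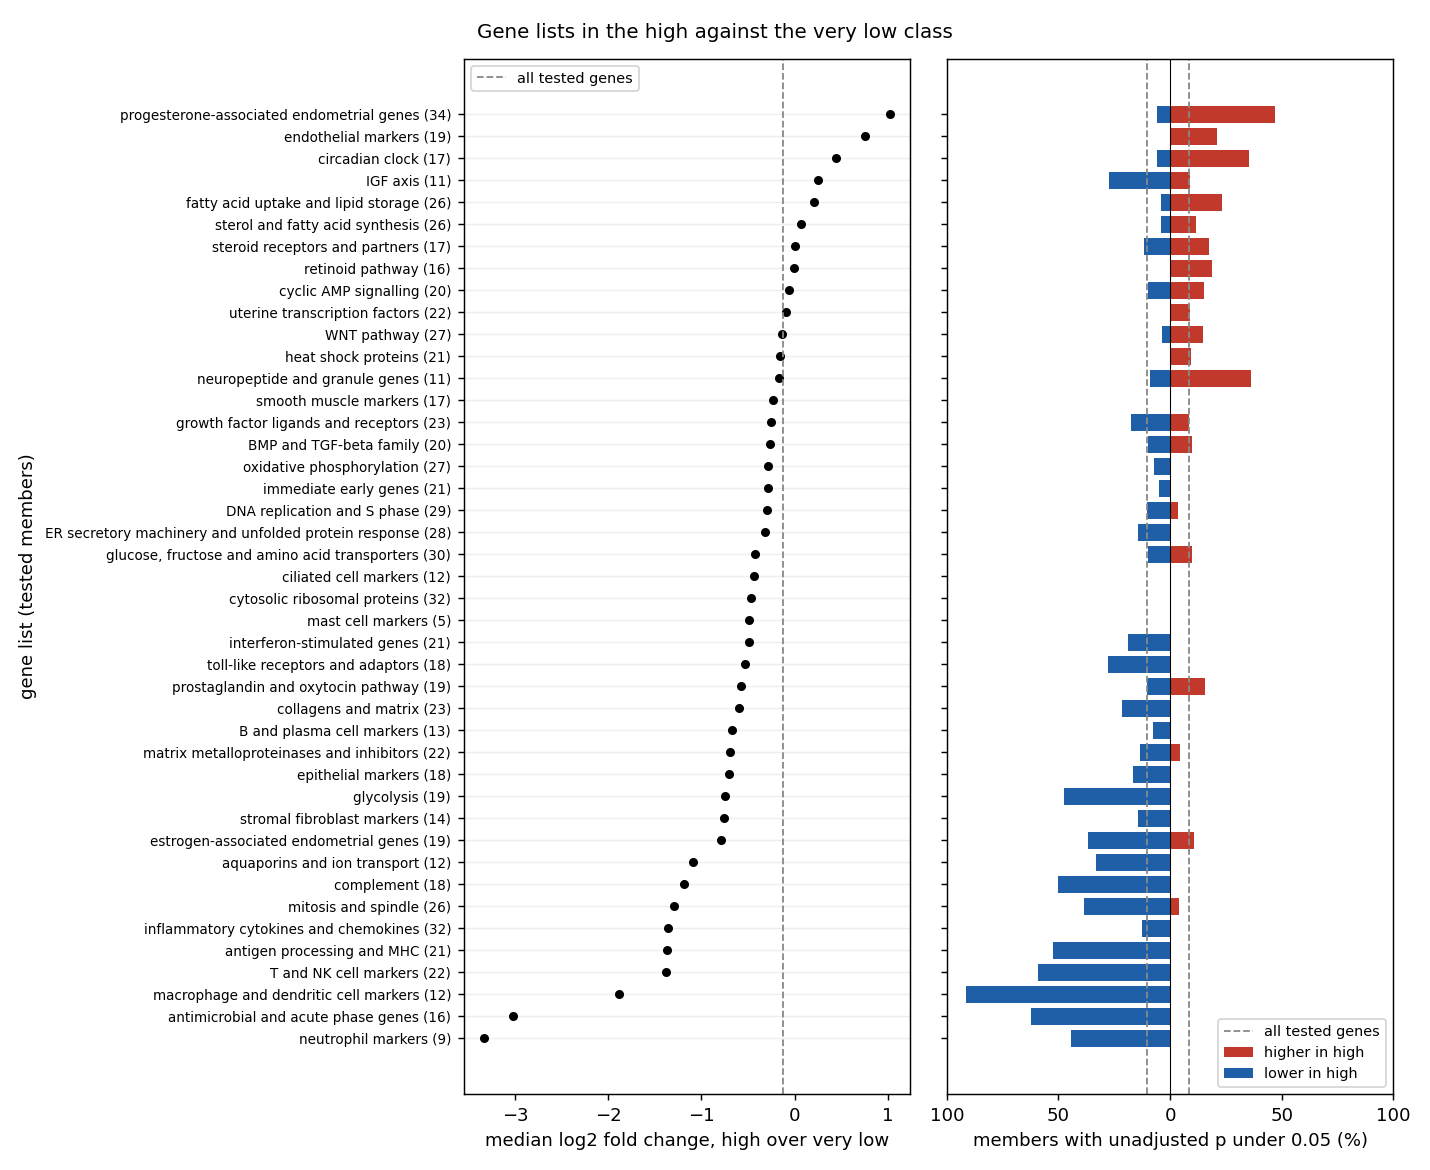
Left, the median log2 fold change (high over very low) of each gene list with at least 5 tested members, the dashed line marking all tested genes (-0.12). Right, the percentage of members with an unadjusted p under 0.05, higher in the high class in red and lower in blue, with dashed lines at 8.60% and 10.2% for all genes. The macrophage list reaches 91.7% on the lower side.

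Endothelial markers leaned the other way, with 4 of 19 higher, 0 lower and a median of 0.76. The tight junction protein CLDN5 had 12.5, 9.29 and 13.5 CPM against 32.6, 24.5 and 23.7 CPM (log2 1.19 ± 0.35, edgeR adjusted p = 0.149), and the receptor S1PR1, which guides leukocytes and steadies vessels, had 25.6, 19.1 and 46.9 CPM against 76.5, 55.1 and 57.6 CPM (log2 1.04 ± 0.30, edgeR adjusted p = 0.149). The median lay between 0.56 and 1.15 when each very low library was left out, and 10 members were under that p without very low replicate 3. Of 17 core clock genes 6 were higher and 1 lower (median 0.45). The repressor PER1 had 14.5, 91.6 and 77.6 CPM against 199.5, 233 and 163 CPM, and the clock output regulator NFIL3 had 29.7, 84.4 and 27.3 CPM against 87.1, 128 and 158 CPM (edgeR adjusted p = 0.177 and 0.182). The lower one, the repressor BHLHE40, had 27.4, 311 and 34.1 CPM against 29.1, 12.9 and 22.1 CPM, with very low replicate 2 far above the rest. The labels give no hour of biopsy.

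Among estrogen-associated genes 7 of 19 were lower and 2 higher (median -0.79). The 7 lower were OXTR, PGR, C3, VEGFA, MYC, KRT19 and AGR2, and all of these except AGR2 were counted in other lists too. The 2 higher were PDZK1, a scaffold of membrane transporters whose locus overlaps GPR89A (14, 13.9 and 92.8 CPM against 724, 574 and 221 CPM), and the protease inhibitor SERPINA1 (1.06, 0.516 and 0.65 CPM against 4.43, 11.6 and 10.4 CPM). SERPINA1 was at 0.114, 0.748 and 1.45 CPM in the very high class, again near the very low level (very high over high log2 -3.50, edgeR unadjusted p = 0.00518, adjusted p = 0.9999). Of 23 collagens and matrix genes 5 were lower (median -0.59), of 22 metalloproteinases and inhibitors 3 were lower and 1 higher (median -0.69), and of 12 aquaporins and ion transport genes 4 were lower (median -1.09). That last list had 1 member under that p and a median of 0.03 without very low replicate 2, and 7 members without very low replicate 1. TIMP2, an inhibitor of metalloproteinases, was the higher one, at 622, 655 and 434 CPM against 1773, 1115 and 932 CPM. In 21 interferon-stimulated genes 4 were lower (median -0.49), and 0 were under that p without very low replicate 2 (median -0.05). In 28 ER secretory genes 4 were lower (median -0.32), and the number was 7, 1 and 9 without very low replicate 1, 2 and 3. In 27 oxidative phosphorylation genes 2 were lower (median -0.28), against 1 without very low replicate 1 and 6 without very low replicate 2. In 21 immediate early genes 1 was lower (median -0.29, but 0.21 without very low replicate 2), against 2 without very low replicate 1 or 3. Of 21 heat shock proteins 2 were higher (median -0.16). All 32 ribosomal protein genes had a log2 fold change below 0, none with an unadjusted p under 0.05, and the median went from -0.47 to 0.12 without very low replicate 1, while 2 were under that p without very low replicate 2. Of 18 epithelial markers 3 were lower (median -0.70), against 8 under that p without very low replicate 1, and the median was 0.67 without very low replicate 2. Of 14 stromal markers 2 were lower (median -0.76), against 6 without very low replicate 2 and 1 without very low replicate 3. Of 12 ciliated cell markers 0 were under that p (median -0.44, but 0.23 without very low replicate 2), with 1 without very low replicate 1. Of 5 mast cell markers 0 were (median -0.49, but 1.03 without very low replicate 3), with 1 without very low replicate 3. Of 17 smooth muscle markers 0 were (median -0.24), against 16 without very low replicate 1 (median 3.78) and 1 without very low replicate 2. Of 3 tested blood and erythroid markers the hemoglobin chain HBA was higher, at 0.353, 0.516 and 0.26 CPM against 3.22, 3.06 and 1.23 CPM, where HBM, ALAS2 and SLC4A1 are listed at 0 in both classes.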

How the data were processed

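The data were read counts per gene, with paired-end TruSeq stranded mRNA libraries from endometrial biopsies sequenced on 1 HiSeq 1500 pool, per the labels' protocols. The authors deposited 1 table of whole-number counts for 13930 gene symbols in 12 libraries. FastQC 0.11.2, Trimmomatic 0.32 and the cattle build UMD3.1 (bosTau8) are listed, without their roles, in the submitters' processing notes. Which aligner, counting tool, annotation and strand setting were used is not given in the sources used here, so genes whose loci overlap are marked as uncertain. Such overlaps and gene names came from a RefSeq table of another build (ARS-UCD2.0), in which 10629 of the 10959 tested genes matched by symbol and 294 by synonym. No coordinates are given for that reason.

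Genes were kept by edgeR's filterByExpr with a count minimum of 10. Counts were tested with edgeR 4.0.16 in R 4.3.3 (limma 3.58.1, DESeq2 1.42.0), using TMM scaling, 1 mean per class and a quasi-likelihood test over all 12 libraries, which share 1 estimate of spread (8 residual degrees of freedom). P-values were adjusted by Benjamini-Hochberg over all tested genes with a threshold of 0.05. Fold changes are high over very low, and ± is the standard error. CPM are counts scaled by TMM to a common library total. The common biological coefficient of variation was 44.0%. On simulated counts for the 10959 genes of this comparison the same fit recovered 8% of 2-fold and 94% of 16-fold changes, with 3 false calls. Changes were planted only in genes with a mean log2 CPM above 3, and all classes were given the same spread per gene. The real very low libraries were more scattered than the high ones, so these shares need not hold for the real comparison.

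The members, gene lists and tests were chosen with earlier results of these data known. Named were PGR, ESR1 and OXTR. To these came, per direction, 12 genes without overlap between the classes and with mean log2 CPM from 1 upward, taken by fold change if past the threshold and otherwise by p. From each of 44 lists came up to 4 members with the smallest p, of which examples are given, and loci without a gene name were left out. Genes chosen after their values were seen are marked so, and EPCAM, COL1A1 and MYH11 are among them. Alternatives covered scaling, filter, test, thinning, libraries used, replicate block and marker scores as covariates. No sequences are shown.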

Additional observations from a re-analysis of the deposited data

How the results depend on the processing

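The count of 0 genes between the high and very low classes was also 0 with 2 other scalings (RLE and upper-quartile factors), without a filter, with a count minimum of 50, with limma-voom and with the 6 libraries alone (1327 at an unadjusted p under 0.05). It was 788 with DESeq2, 29 after thinning to the smallest total, 1167 with the smooth muscle score as covariate, and 0 to 130 when 1 library was left out. The very high against high count was 0 in all 24 alternatives. The replicate numbers gave no sign of pairing the samples. Same-numbered very low and high libraries correlated at -0.298, -0.225 and -0.174 in their deviations from the class means, and none correlated best with its own number. Deviations within a class sum to 0, which ties these correlations together, so they cannot decide whether the samples are paired. With the replicate block 0 genes passed, in 12 libraries (1759 at an unadjusted p under 0.05) and in 6 (747). Of the 89 genes given with their values, 79 passed the threshold in at least 1 alternative and 10 changed sign in at least 1. Most of the 89 were named for a small p in these data, so the 79 are no independent support. The share of all genes passing in at least 1 alternative was not computed, and the smooth muscle score alone let 1167 of 10959 pass. With both marker scores in the fit the log2 fold change was 0.20 for AURKA, 0.54 for CD74, 1.25 for COL1A1, -4.34 for IGFBP1, -0.91 for NFIL3, 1.98 for NKG7, 1.25 for NPY and 0.79 for RRM2. When 1 library was left out NPY lay between -5.26 and 0.53 (the latter without very low replicate 3) and MYH11 between -0.82 and 7.26, and EPCAM lay between -0.29 and 1.37 (the former without very low replicate 1). MYH11 was at 4.20 with limma-voom, 1.09 with the replicate block in 12 libraries, 5.74 with the replicate block in 6, 1.09 with the smooth muscle score, 1.97 with both scores and 7.26 without very low replicate 1. Of 43 list medians 22 took the other sign with both scores, and 8, 13 and 6 did so without very low replicate 1, 2 and 3. The number of list members at an unadjusted p under 0.05 moved by over 1.5 times in 16, 17 and 10 of the 43 lists. The cause of these moves was not tested. Low counts limit several genes, whose fold changes depend on few reads in the very low class. Among them are PENK, MEP1B, NRCAM, SLC27A6, SCG2, FMO2, SERPINA14, CES4A, IGFBP1, SERPINA1 and HBA.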
